A study of Homo sapiens with 6 samples.

Results

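Genes of Notch receptor cleavage, of the Numb family and of the nuclear RBPJ-Mastermind complex were examined for MYT1L peaks in day 30 cultures from human embryonic stem cells. They were chosen by name, as RBPJ, MAML1, MAML2, MAML3, NUMB, NUMBL, ADAM10, PSEN2 and NCSTN, and they are 9 of the 20037 protein-coding genes on chromosomes 1 to 22, X and Y in the RefSeq table of GRCh38.p14. Every peak that touched the body of one of these genes, or the 5 kb on either side of it, was taken. All 9 genes were found in the table, and 47 peaks met this rule.

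Occupancy was measured by CUT&RUN, which sequences the DNA that an antibody-tethered nuclease cuts free around a chromatin protein. All 6 libraries came from wild-type cells of 1 human embryonic stem cell line, H1, labelled with a passage between 10 and 60 and with day 30. An anti-MYT1L antibody was used for 4 of them, and nonspecific IgG, which measures the background, for the other 2. The series describes the day 30 cells as cortical interneurons, while each sample's cell type is given as embryonic stem cells. Peak lists hold no expression values, so the cell type was not checked against markers. Nothing in the labels says whether the libraries came from separate cultures, so their spread may be technical. The sample numbers in the peak names of the MYT1L files differ from those in the titles, and libraries are numbered here by title.

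In Notch signalling, a ligand on a neighbouring cell exposes the receptor to the metalloprotease ADAM10, and the membrane stub is then cut by gamma-secretase, whose catalytic presenilin subunit (PSEN2 is one) works with the substrate-binding subunit nicastrin (NCSTN). The freed intracellular domain enters the nucleus and joins the DNA-binding protein RBPJ and a Mastermind-like coactivator (MAML1, MAML2 or MAML3) to switch on HES and HEY genes. NUMB and its relative NUMBL are adaptor proteins that restrain Notch in dividing neural progenitors. MYT1L is a zinc-finger transcription factor of postmitotic neurons known for repressing non-neuronal programmes, and Notch pathway genes are among those described as its targets.

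Listed promoters overlapped by peaks of at least 3 libraries are shown first. Each line gives the 250 bases before a transcription start of RefSeq (GRCh38.p14), 5′ to 3′ on the strand of the gene. Capitals mark bases inside peaks of at least 3 of the 4 MYT1L libraries. For RBPJ both the upstream start and the first of the neighbouring pair of starts are given. The window before the other start of that pair, at 26321228, had 245 of 250 bases inside such peaks and is not printed, since it repeats part of the window before it.
ADAM10 (minus strand, chr15:58749708-58749957): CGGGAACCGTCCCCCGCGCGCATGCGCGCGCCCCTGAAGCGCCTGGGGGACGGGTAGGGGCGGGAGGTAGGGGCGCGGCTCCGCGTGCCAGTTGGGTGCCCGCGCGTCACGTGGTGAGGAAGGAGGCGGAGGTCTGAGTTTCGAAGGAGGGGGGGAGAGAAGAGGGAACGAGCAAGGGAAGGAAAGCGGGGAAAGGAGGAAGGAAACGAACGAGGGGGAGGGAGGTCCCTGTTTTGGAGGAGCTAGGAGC
PSEN2 (plus strand, chr1:226870366-226870615): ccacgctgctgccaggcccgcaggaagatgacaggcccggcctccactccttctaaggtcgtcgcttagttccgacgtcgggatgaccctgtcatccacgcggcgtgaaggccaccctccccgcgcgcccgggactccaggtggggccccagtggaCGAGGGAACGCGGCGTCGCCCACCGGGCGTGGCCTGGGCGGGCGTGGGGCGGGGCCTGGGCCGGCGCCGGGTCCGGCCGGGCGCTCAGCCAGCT
NCSTN (plus strand, chr1:160343133-160343382): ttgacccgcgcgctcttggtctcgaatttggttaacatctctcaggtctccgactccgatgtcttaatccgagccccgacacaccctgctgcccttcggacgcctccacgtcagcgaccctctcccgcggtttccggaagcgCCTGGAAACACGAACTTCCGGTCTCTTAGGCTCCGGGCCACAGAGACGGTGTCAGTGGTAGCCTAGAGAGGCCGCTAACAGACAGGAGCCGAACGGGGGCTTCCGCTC
NUMB (minus strand, chr14:73458547-73458796): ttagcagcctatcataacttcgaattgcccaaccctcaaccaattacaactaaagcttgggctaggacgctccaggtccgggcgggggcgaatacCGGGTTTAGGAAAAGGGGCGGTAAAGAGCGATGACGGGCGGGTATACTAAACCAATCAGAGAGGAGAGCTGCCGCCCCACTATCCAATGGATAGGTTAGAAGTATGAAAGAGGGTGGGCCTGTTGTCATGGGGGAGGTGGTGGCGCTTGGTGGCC
RBPJ (plus strand, chr4:26319496-26319745): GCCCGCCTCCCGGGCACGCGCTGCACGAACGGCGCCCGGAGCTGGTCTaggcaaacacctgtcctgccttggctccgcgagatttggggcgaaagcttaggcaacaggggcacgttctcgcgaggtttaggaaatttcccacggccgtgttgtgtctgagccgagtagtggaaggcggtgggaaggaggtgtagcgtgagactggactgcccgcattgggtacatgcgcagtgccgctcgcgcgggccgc
RBPJ (plus strand, chr4:26320764-26321013): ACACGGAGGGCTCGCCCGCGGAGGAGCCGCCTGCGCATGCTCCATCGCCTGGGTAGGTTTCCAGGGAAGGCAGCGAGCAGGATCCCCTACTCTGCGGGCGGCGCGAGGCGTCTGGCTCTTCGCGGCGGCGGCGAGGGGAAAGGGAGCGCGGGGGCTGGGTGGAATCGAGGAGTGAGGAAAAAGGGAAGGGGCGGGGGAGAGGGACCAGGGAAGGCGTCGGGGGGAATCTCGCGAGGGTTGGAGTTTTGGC
MAML1 (plus strand, chr5:179732572-179732821): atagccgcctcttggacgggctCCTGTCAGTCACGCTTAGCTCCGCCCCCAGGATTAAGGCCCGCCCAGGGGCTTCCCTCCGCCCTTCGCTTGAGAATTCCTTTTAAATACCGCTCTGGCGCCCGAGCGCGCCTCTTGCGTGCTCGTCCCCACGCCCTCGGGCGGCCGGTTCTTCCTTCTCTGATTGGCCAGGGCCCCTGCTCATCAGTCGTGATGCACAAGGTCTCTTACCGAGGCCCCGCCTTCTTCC

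At ADAM10 and at the second of the RBPJ starts shown, all 250 bases lay inside peaks of at least 3 libraries. The number was 228 bases at MAML1, 155 at NUMB, 108 at NCSTN, 94 at PSEN2 and 48 at the upstream RBPJ start. Over the whole 250 bases, CG dinucleotides numbered 31 at PSEN2, 26 at either RBPJ start shown, 25 at ADAM10, 24 at NCSTN, 21 at MAML1 and 12 at NUMB. The median over 22199 listed promoters of protein-coding genes was 16, above the value at NUMB and below the other 6, and over the 7859 that a region in at least 3 libraries overlapped it was 24. The core sequence of the MYT1 family, AAGTT, was searched on both strands (as AAGTT and AACTT, with no other motif counted). It occurred once, on the opposite strand, before NCSTN, with its first base at position -96 from the start and inside the stretch in capitals. It also occurred once before NUMB, at position -235 and outside that stretch. The other promoters shown held no match. The unprinted RBPJ window before 26321228 held 1, at position -143 and also inside peaks of 3 libraries. Counting all listed starts, 3 of 14 promoters of the 9 genes (21.4%) held a match. Of all listed promoters of this length, 27.0% held at least 1 match, and the share was 18.2% among those overlapped by such a region and 31.8% among the others.

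Peaks at the 9 genes came from the MYT1L libraries alone. MYT1L replicates 1 to 4 had 9, 9, 10 and 19 peaks there, and both IgG replicates had 0. The mean was 11.75 ± 4.86 (SD, n = 4) against 0, and every MYT1L library lay above both controls. At least 1 peak was present at 6, 7, 8 and 9 of the genes in MYT1L replicates 1 to 4, so only replicate 4 had one at each gene. Relative to the size of the lists, which held 27926, 12310, 18966 and 30086 peaks on these chromosomes, this was 3.22, 7.31, 5.27 and 6.32 peaks per 10000. Replicate 1, with the second-longest list, thus had the lowest share. The IgG lists held 976 and 998 peaks. At any of these rates, a list that short would be expected to hold fewer than 1 peak at the 9 genes. Whether the gap between the totals is particular to these genes was not tested. How often other sets of 9 genes separate in this way was not examined.

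**Figure D1:**
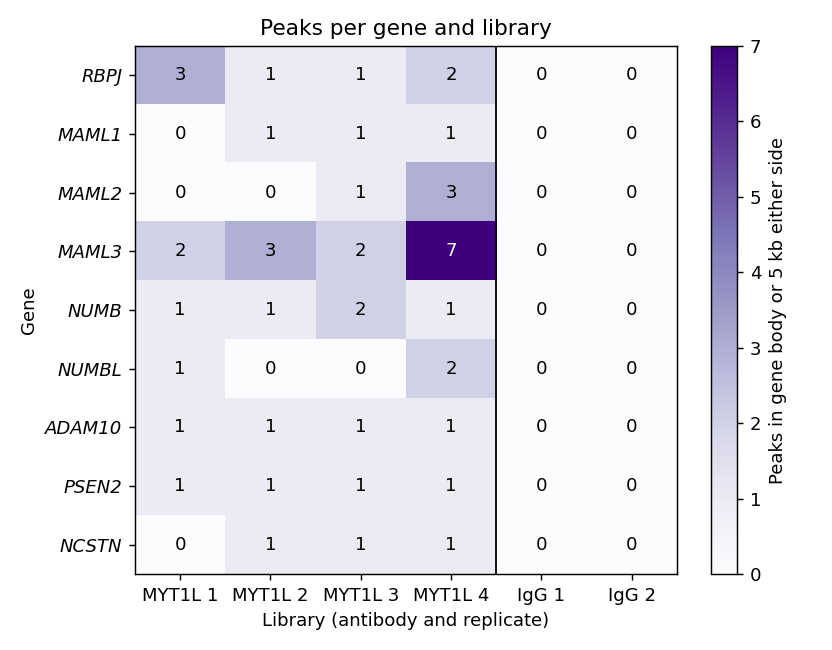
Number of peaks (shade and figure in each cell, scale from 0 to 7) in the body or 5 kb either side of each gene (rows) in each library (columns, with the vertical line between MYT1L and IgG). Both IgG columns are 0 throughout, and the darkest cell is MAML3 in MYT1L replicate 4, with 7 peaks.

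The controls were shallower and their lists shorter, with 976 and 998 peaks. Depth is not stated in the sources used here and was estimated from the deposited fold and p-value of the peaks. It came to 5.99, 2.25, 5.26 and 4.78 fragments per kb of background in MYT1L replicates 1 to 4, and to 1.55 and 0.949 in IgG replicates 1 and 2. If the fragments of each MYT1L library were thinned to the depth of IgG replicate 1, 2.29, 6.01, 2.58 and 9.98 of the peaks at the 9 genes would be expected to stay in replicates 1 to 4, or 20.9 of 47. At the depth of IgG replicate 2 the total was 12.5. At the depth of the controls, many peaks of this height could thus have gone uncalled in IgG, but not all would be expected to. Whether depth accounts for the absent IgG peaks was not tested. Peaks at regions that several libraries shared, described below, also fell on both sides. At the depth of IgG replicate 1, the probability of staying varied widely among these peaks. It was 0.0669 at PSEN2 in MYT1L replicate 1 and 0.0722 at NUMB in replicate 3, but 0.993 at NUMB in replicate 4. Over all protein-coding genes, 4.16% had an IgG peak by the same rule.

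Peaks of the MYT1L libraries that overlapped by at least 1 bp were joined into regions, which gave 25 regions at the 9 genes. A single library supported 15 of them, whereas 2 were shared by 2 libraries, 4 by 3 and 4 by all. None overlapped an IgG peak. A region with peaks in at least 3 libraries is called reproducible here, and 8 of the 25 (32.0%) were, against 25.1% of all 49028 regions. Of these 8, 7 had a summit within 1 kb of a listed transcription start, as did 54.5% of all 11091 reproducible regions without an IgG peak. Of the 15 regions in a single library, 3 lay there, beside 10.5% of all such regions. The shares over all regions (25.1%, 54.5% and 10.5%) also count regions away from genes. The rule for the 9 genes leaves such regions out, so the sets are not alike.

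By gene, 7 of the 9 had a reproducible region without an IgG peak (RBPJ, MAML1, MAML3, NUMB, ADAM10, PSEN2 and NCSTN), where 48.0% of all 20037 protein-coding genes did. MAML2 and NUMBL had none. Long genes meet this criterion more often. Among genes of at least 100 kb the share was 67.6%, and 4 of the 5 such genes here met it. Among shorter genes it was 44.1%, with 3 of 4 here. With the summit within 1 kb of either end of the gene, 5 of 9 qualified, against 38.2% of all genes. Split by length, these were 2 of the 5 long genes (51.0% of all long genes) and 3 of the 4 shorter ones (35.6%). With the summit within 1 kb of a listed start, RBPJ joined them, giving 6 of 9, against 41.9% of the 15843 genes with a listed start. A region in all 4 libraries was present at 4 genes, MAML3, NUMB, ADAM10 and PSEN2, against 25.3% of all genes. For all except MAML3 it lay at a listed start, against 22.2%. With 9 named genes these counts are descriptions and carry no test.

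**Figure D2:**
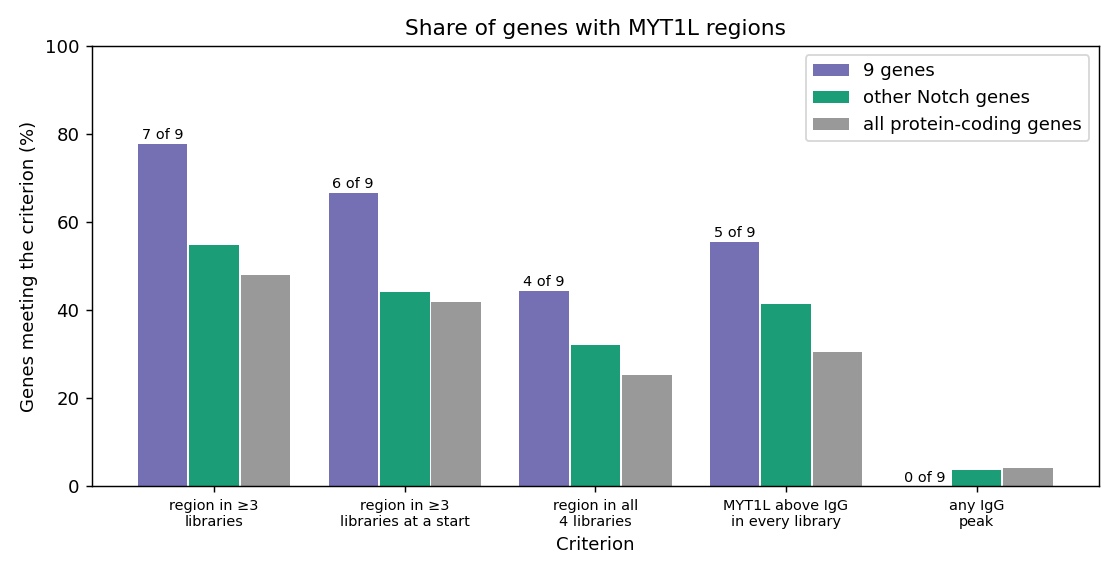
Share of genes in percent (bars, axis from 0) that meet each of 5 criteria, for the 9 genes, the other Notch pathway genes and all protein-coding genes. The bars of the 9 genes, labelled with their counts, are the highest for the 4 MYT1L criteria, with 7 of 9 against 48.0% of all genes for the first, and are at 0 for IgG peaks. Gene length is not matched between the sets.

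Starting with receptor cleavage, ADAM10 (chromosome 15, 58588809 to 58749707) carried the strongest shared peak at a start. Its only region, chr15:58748846-58750106, had a peak in every MYT1L library. The fold over background deposited by the authors was 8.78, 7.09, 7.43 and 9.70 in MYT1L replicates 1 to 4, a mean of 8.25 ± 1.21 (SD, n = 4). All 4 values stood high in their own lists, above 96.2%, 84.3%, 90.1% and 88.6% of the peaks there or equal to them. Summits held 26, 11, 18 and 46 stacked fragments, against a local background of 2.08, 0.692, 1.56 and 3.85. Relative to the start they lay between -179 and 532 bp, and 306 bp were common to the 4 peaks. Among 3973 genes with an end region in all 4 libraries and no IgG peak, 85.4% had a lower mean fold than ADAM10.

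PSEN2 (chromosome 1, 226870616 to 226903668) likewise had 1 region and 1 peak in each MYT1L library. The region, chr1:226870328-226871191, had folds of 4.83, 7.13, 5.33 and 9.96 in MYT1L replicates 1 to 4, with a mean of 6.81 ± 2.32 (SD, n = 4). Replicate 4 was highest and replicate 1 lowest, with 29 and 15 stacked fragments. The summits lay closer together than at ADAM10, from -97 to 204 bp of the start, and 256 bp were common to all 4. Its mean fold was above that of 46.1% of the 3973 genes, near the middle. The table also places a long noncoding RNA gene, LOC105373119, over 223 bp of this region (its interval ends at position 226870550), so the region cannot be assigned to PSEN2 alone.

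At NCSTN (chromosome 1, 160343383 to 160358949) the region chr1:160342979-160343740 was shared by 3 libraries. Folds were 4.78, 5.36 and 12.3 in MYT1L replicates 2, 3 and 4, a mean of 7.47 ± 4.17 (SD, n = 3), and replicate 1 had no peak. The value in replicate 4 was 2.29 times the next and at or above 96.6% of its list, while those of replicates 2 and 3 were at or above 22.8% and 57.1%. Stacked fragments numbered 7, 10 and 33. The neighbouring gene COPA, a coat protein of Golgi vesicles that is transcribed the other way, has its start 132 bp from that of NCSTN. One region covers both starts, and the files cannot divide it between them. NCSTN no longer counted as reproducible when peaks had to reach a −log10 q of 5, nor when summits within 200 bp were required.

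**Figure D3:**
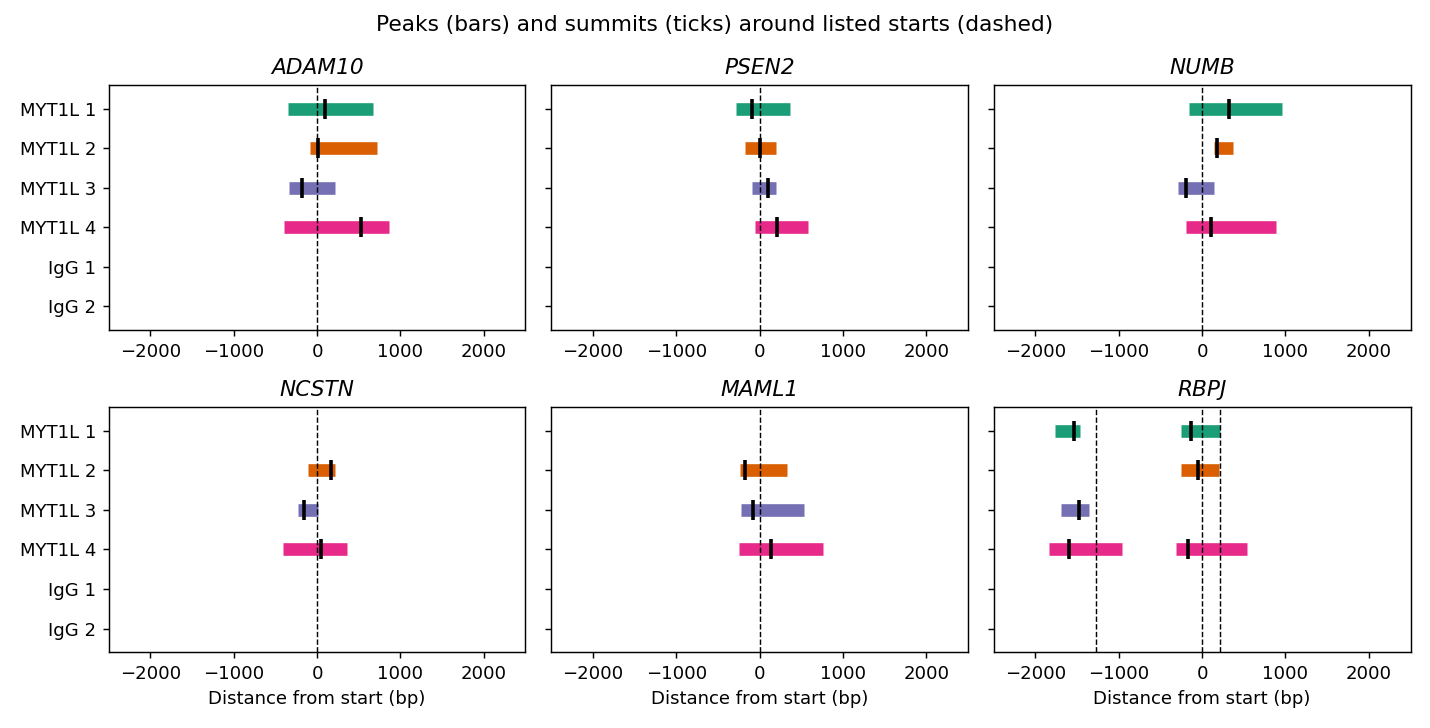
Peaks (bars from start to end) and summits (black ticks) of each library (rows) by distance in bp from a listed start, positive into the gene, for 6 genes; dashed lines mark listed starts, and for RBPJ 0 is the first of the neighbouring pair. Peaks of ADAM10, PSEN2 and NUMB appear in all 4 MYT1L libraries and those of NCSTN and MAML1 in 3, all across or next to the start, and the IgG rows are empty.

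The Numb pair differed in support. NUMB (chromosome 14, 73275216 to 73458546) had a region in all 4 libraries, chr14:73457591-73458841, with folds of 5.68, 4.62, 4.86 and 12.2 in MYT1L replicates 1 to 4. The mean was 6.84 ± 3.60 (SD, n = 4). Replicate 4 stood apart, at 2.15 times the next value and with 46 stacked fragments, against 14, 6 and 11 in replicates 1 to 3. The peaks of replicates 2 and 3 shared only 3 bp, and the summits spread over 516 bp, from -195 to 321 bp of the start. Counting only peaks whose −log10 q reached 5, the region was no longer reproducible. A second region, 41.2 kb inside the gene, had a peak of fold 4.19 in replicate 3 alone.

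NUMBL (chromosome 19, 40665905 to 40690651) had no reproducible region. At its start the only peak was in MYT1L replicate 4 (chr19:40690416-40691047, fold 5.55, 25 stacked fragments), and the gene COQ8B lies 878 bp further on. A region beyond the other end of the gene, chr19:40662905-40663152, had peaks in MYT1L replicates 1 and 4, with folds of 4.42 and 4.99. Replicates 2 and 3 had no peak at NUMBL. Whether NUMB and NUMBL differ in occupancy was not tested.

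Of the nuclear factors, RBPJ (chromosome 4, 26105449 to 26435131) had its peaks well inside the annotated gene. The table places the 5′ end of RBPJ 214.3 kb before the start at position 26319746, and no peak lay within 1 kb of either end. Near 3 listed starts in the middle of the gene, at 26319746, 26321014 and 26321228, there were 6 peaks, and each MYT1L library had at least 1. They formed 2 regions. The upstream one, chr4:26319171-26320048, had folds of 5.38, 6.79 and 5.01 in MYT1L replicates 1, 3 and 4 (mean 5.72 ± 0.939, SD, n = 3). The downstream one, chr4:26320698-26321552, had 5.28, 6.66 and 6.46 in replicates 1, 2 and 4 (mean 6.13 ± 0.746, SD, n = 3). Here replicate 4 was not the highest at either region, although its stacked fragments, 31 and 40, exceeded the 20 and 19 of replicate 1. Its local background was also higher there, 6.02 and 5.97 times its genome-wide level.

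The other listed RBPJ starts, at 26163458 and 26343140, had no peak over them. They held 0 CG dinucleotides in the 250 bases before the start. A single peak of replicate 1, 46.3 kb into the gene from the first of these, had the highest fold at RBPJ (8.66, 24 stacked fragments) and no counterpart in the other libraries.

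Among the Mastermind-like coactivators, MAML1 (chromosome 5, 179732822 to 179777283) had 1 region, chr5:179732574-179733586, in 3 libraries. Folds were 6.26, 6.92 and 7.94 in MYT1L replicates 2, 3 and 4 (mean 7.04 ± 0.845, SD, n = 3). Replicate 1 had no peak. The 3 summits lay from -180 to 136 bp of the start, and 563 bp were common to the 3 peaks. CANX, the gene of the chaperone calnexin, ends 1180 bp upstream. The call was lost when summits within 200 bp were required.

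MAML3 (chromosome 4, 139716753 to 140154184), at 437.4 kb the longest of the 9, held the most peaks, 14 in 10 regions. Its peak numbers were 2, 3, 2 and 7 in MYT1L replicates 1 to 4. Only 1 of the 10 regions was reproducible, and it lay far from the start. It was chr4:139734785-139735530, with folds of 5.79, 8.23, 9.07 and 11.4 in MYT1L replicates 1 to 4, a mean of 8.61 ± 2.30 (SD, n = 4) and the highest mean of the 8 reproducible regions. The summits lay within 153 bp of each other, 419.1 kb into the gene, and in replicates 1 to 4 the fold was at or above 73.5%, 92.6%, 96.2% and 94.7% of the list. This stretch also belongs to MGST2, a microsomal glutathione transferase gene that overlaps MAML3 by 37866 bp, so the region cannot be assigned to either gene from these files.

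Near the start of MAML3 the picture rested on replicate 4. That library had 3 peaks in the first part of the gene, with summits 139 bp, 1180 bp and 2557 bp after the start and folds of 4.61, 2.74 and 5.05. Stacked fragments were many (36, 21 and 39), but so was the local background, between 7.74 and 7.84 times the genome-wide level of that library. The outermost of these overlapped a peak of replicate 2 with a fold of 3.90, at or above only 3.46% of its list. The remaining 6 regions at MAML3 each had 1 peak in 1 library, with folds from 4.08 to 6.55.

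MAML2 (chromosome 11, 95976598 to 96343195) is of similar length, 366.6 kb, and had 4 peaks in 4 regions, none of them shared. Replicates 1 and 2 had no peak, replicate 3 had 1 and replicate 4 had 3. The peak at the start (chr11:96343082-96343378, fold 5.29, summit at -20 bp) was in replicate 4 only. The other 3 lay 99.8, 250.4 and 330.8 kb into the gene, with folds of 5.28, 4.39 and 5.81. With equal numbers of top peaks from each list, MAML2 had 0 regions, and without replicate 4 it had 1.

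**Figure D4:**
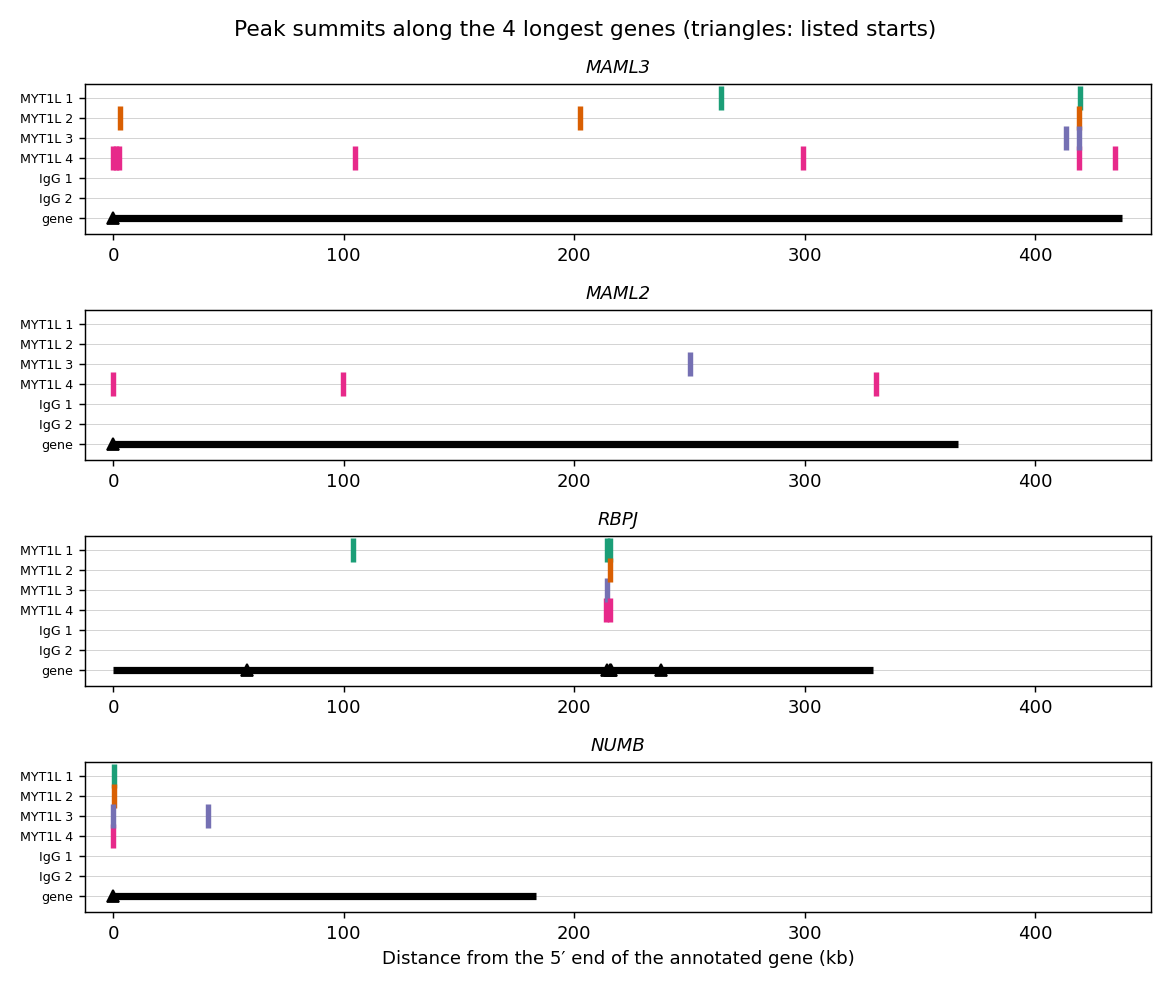
Summits of peaks (coloured ticks) in each library (rows) by distance in kb from the annotated 5′ end of MAML3, MAML2, RBPJ and NUMB; the black bar is the gene and triangles are listed starts. Summits of several libraries align 419.1 kb into MAML3, in the middle of RBPJ near its clustered starts and at the start of NUMB, while those of MAML2 do not align.

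Replicate 4 weighed on many of these values. It had the highest fold at 6 of the 8 reproducible regions, both RBPJ regions being the exceptions. The same library had the highest fold at 70.1% of the 5952 regions shared by all 4 MYT1L libraries genome-wide. That set includes regions with an IgG peak and leaves out regions in 3 libraries, so it is unlike the 8. At the regions here that all 4 shared (MAML3, NUMB, ADAM10 and PSEN2), replicate 4 was the highest each time. The median width of its peaks in these 8 regions was 866.5 bp, against 563.5, 376 and 336 bp in replicates 1 to 3. Without it, and with 2 of the other 3 libraries sufficient, 7 of the 9 genes still had a reproducible region.

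**Figure D5:**
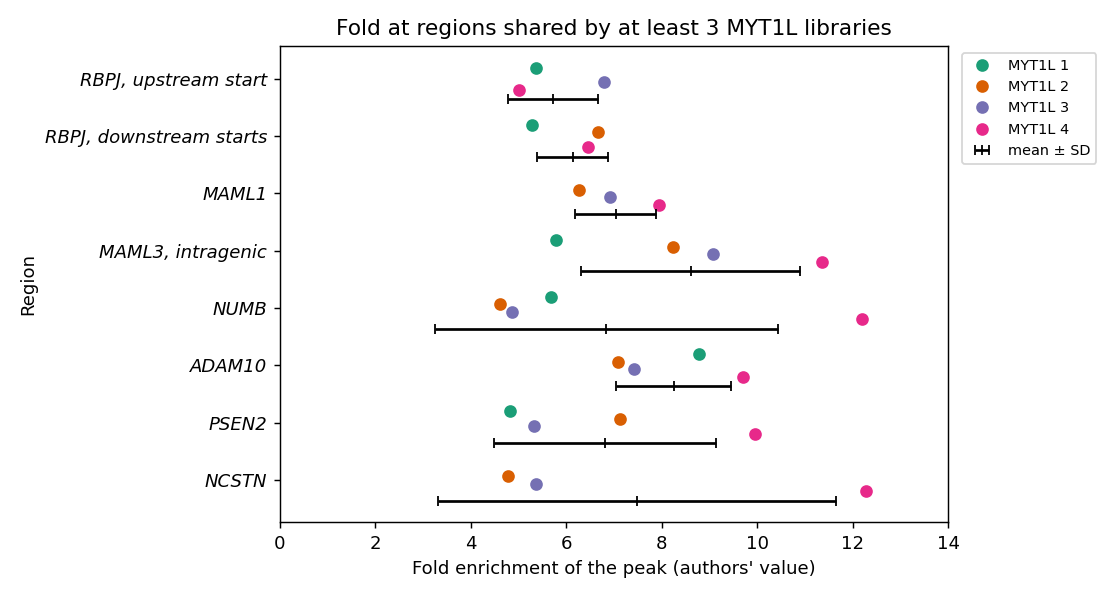
Fold enrichment of the peak as deposited by the authors (horizontal axis from 0) in each MYT1L library (coloured points) at the 8 regions shared by at least 3 libraries, with the mean ± SD over libraries with a peak in black. Replicate 4 is the rightmost point in 6 of 8 regions, and it lies farthest from the others at NUMB and NCSTN, at 12.2 and 12.3.

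Tests between the antibodies were possible gene by gene. Peak numbers of every MYT1L library exceeded those of both controls at RBPJ, MAML3, NUMB, ADAM10 and PSEN2, that is at 5 of the 9 genes, against 30.6% of all protein-coding genes. For each of these 5 the exact permutation test (two-sided) gave p = 0.133, the smallest value that 4 against 2 libraries allow, so no gene could pass 0.05. In order of the mean number of peaks per MYT1L library, MAML3 (3.5 ± 2.38, SD, n = 4) was followed by RBPJ (1.75 ± 0.957) and NUMB (1.25 ± 0.5). ADAM10 and PSEN2 had 1 in each library and MAML2 1.0 ± 1.41, and MAML1, NUMBL and NCSTN had 0.75 each. From RBPJ downwards, neighbours in this order lay within each other's spread or were equal, and MAML3 and RBPJ overlapped in their values. Per 100 kb of gene the order changed, with 4.82 at NCSTN and 3.03 at NUMBL and PSEN2, but 0.8 at MAML3 and 0.273 at MAML2.

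Other genes of the Notch pathway give a point of reference. A list of 53 further genes found in the table covered receptors, ligands, glycosyltransferases, ubiquitin ligases, corepressors, coactivators and HES and HEY targets. Of these, 29 (54.7%) had a reproducible region without an IgG peak, against the 48.0% of all genes given above. At a listed start the count was 19 of 43 (44.2%, against 41.9%), and 17 of 53 had a region in all 4 libraries (32.1%, against 25.3%). Gene length was not matched between the 2 sets. Among genes of at least 100 kb, 9 of 11 other Notch genes (81.8%) had a reproducible region, beside 4 of 5 here. With a summit within 1 kb of either gene end, these were 8 of 11 (72.7%) and 2 of 5. Among shorter genes the counts were 20 of 42 (47.6%) beside 3 of 4, and at an end 13 of 42 (31.0%) beside 3 of 4. No test was made of these shares. The highest mean folds of regions at an end in all 4 libraries were 9.31 ± 2.75 (SD, n = 4) at DTX2, a Deltex ubiquitin ligase, and 9.28 ± 2.13 at CDK8, a kinase of the Mediator complex. NOTCH2, a receptor, had 8.35 ± 1.71, and POGLUT1, a glucosyltransferase of the receptor, 8.24 ± 4.12. HEY2, a target repressor, had 7.04 ± 2.76 and KDM1A, a histone demethylase, 6.73 ± 1.29. ADAM10, at 8.25, falls among them.

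Across the 4 MYT1L libraries, the genes whose end-region folds were nearest to those of ADAM10 were SSBP2, NCK1 and SEC23B, of 3973 compared. Their Euclidean distances from it over 4 log2 folds were 0.0874, 0.103 and 0.112. SSBP2 had folds of 8.45, 7.07, 7.70 and 9.40. This is a likeness of 4 numbers per gene and describes nothing beyond them.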

How the data were processed

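Values from 6 CUT&RUN peak lists were used, 1 per library, grouped by antibody and numbered as in the sample titles. MACS2 and hg38 are named in the submitters' processing notes; versions, thresholds, control use and pooling are not given in the sources used here. For each peak the authors deposited a fold (a ratio over the caller's background), a −log10 p, a −log10 q and a score, together with a summit. These are the authors' own values. Folds were also set side by side and averaged across libraries, without rescaling for the libraries' differing depths. The lowest deposited −log10 q was between 2.00 and 2.01 in every list.

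Peaks on chromosomes 1 to 22, X and Y were kept, which left out 2.05% to 18.4% per list. MYT1L peaks sharing at least 1 bp formed regions, with 0 differences from bedtools 2.31.1 in the number of regions. Genes came from the RefSeq table of GRCh38.p14, which holds no exons, and starts and strands from the matching promoter table, in which all 9 genes have at least 1 start. Depth was estimated by solving the caller's formulas for a whole-number pileup of fragments, which succeeded for 100% of the peaks with a −log10 p up to 200, and for 1459 of 1459 simulated ones. The simulated peaks were made with the same formulas, so they check the solving and not the depth itself. The step between local backgrounds gave the fragment length, and the lowest shared background divided by it the depth. Totals of reads are unknown. Work was done in Python 3.11.15 with scipy 1.17.1.

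The 9 genes, the list of other Notch genes and the rules were chosen with earlier results of these data known. The text names all 9 genes, each of their reproducible regions, the strongest regions of the others, and at most 6 other Notch genes, those with an end region in all 4 libraries and the highest mean fold. Gene ends had been planned as the measure of position; listed starts were added after the files were read.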

Additional observations from a re-analysis of the deposited data

Results flagged for a closer look

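In MYT1L replicate 4 the number of peaks at the 9 genes, 19, stood apart from the 9, 9 and 10 of the other libraries. Its fold at the start of NUMB, 12.19, did so too. The number of peaks at NUMB was 2 in replicate 3 and 1 in the others. At MAML1 and at NCSTN it was 0 in replicate 1 and 1 in the other 3. In each case the library farthest from the others was separated by a gap larger than expected in 5% of groups of 4, for 5 of 14 groups examined. Counts of 0, 1 and 2 take few values, so a single different library is enough.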

How the results depend on the processing

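The number of genes with a reproducible region, 7 of 9, was between 7 and 8 when each of the 6 libraries was left out in turn (2 of the remaining 3 MYT1L libraries then sufficed), gaining NUMBL where it was 8, and was 8 with 2 libraries sufficient. It was 5 both where −log10 q had to reach 5 and with summits within 200 bp. It was 4 when all 4 libraries were required. With a summit within 1 kb of either gene end the count was 5. It was 3 where −log10 q had to reach 5, with all 4 libraries and with summits within 200 bp, and 5 with any 1 library left out. At listed starts it was 6, and 3 with all 4 libraries. It was 4 there both where −log10 q had to reach 5 and with summits within 200 bp. These falls follow from fewer peaks or a stricter demand on them. The difference in mean peak number, 11.75, ranged from 9.33 without MYT1L replicate 4 to 12.7 with 1 library left out in turn, and was 8.5 where −log10 q had to reach 5. At the sequencing depth of the first IgG library it was 5.21, and at that of the second, an alternative chosen after seeing the data, 3.12. As a replicate block over the numbers 1 and 2 that both antibodies carry, the paired difference was 9.0; nothing in the labels says that these numbers mark a shared culture. Of 90 recomputed numbers of regions per gene, 75 stayed within 1.5 times the value given. Shallow controls limit what an absent IgG peak can show.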
